A study of Mus musculus with 6 samples.

Results

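Scavenger receptors are the surface molecules with which macrophages and some endothelial cells take up modified lipoproteins, dead-cell debris, matrix fragments and microbes. Here 10 of their genes were examined in MC38 tumors treated with GB2 or PBS. They were Msr1, Stab1, Stab2, Cd163, Mrc1, Cd36, Marco, Colec12, Scarb1 and Cd68. They were taken by name from the gene table of the series, which listed 33965 genes, and all 10 were among the 19602 genes with enough counts to be tested. MC38 is a mouse colon carcinoma line, and the tumors grew under the skin of C57BL/6 mice, which the study's methods give as female and 6 weeks old when bought. The animals received either GB2 or PBS, the vehicle. GB2 is a prodrug in which the STING agonist MSA-2 is joined to artesunate through a disulfide bond that glutathione cleaves. Each group had 3 tumors, and RNA was sequenced from whole tumor tissue, so every value below is a sum over cancer, immune, vascular and stromal cells.

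The family is held together by what its members bind rather than by ancestry. Class A receptors such as Msr1 and Marco carry collagen-like stalks that grip polyanionic ligands, class B receptors such as Cd36 and Scarb1 bind lipoproteins and lipids, and the stabilins, CD163 and the mannose receptor Mrc1 clear matrix fragments, hemoglobin complexes and mannosylated glycoproteins. In tumors, Cd163, Mrc1, Msr1 and Stab1 are widely used as markers of alternatively activated, tissue-clearing macrophages, but Stab1, Stab2, Mrc1, Cd36, Scarb1 and Colec12 are also made by endothelial cells or by other stromal and epithelial cells.

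The libraries held 64764405 to 69878156 counts in the PBS tumors and 81210553 to 83690056 in the GB2 tumors. Judged from the most common low values in the table, about 4 counts appear to stand for 1 read pair, in which case the depth was 16191101 to 20922514 read pairs. PBS tumor 1 stood apart from the other 5 tumors on the first principal component, which held 34.0% of the variance, and members whose value turns on it are given with and without it below. The labelled tissue was checked with marker lists: macrophage, endothelial and fibroblast markers were all detected, whereas 2 of 7 epithelial markers, Krt19 and Cldn7, had too few counts to be tested. The other 5 epithelial markers had low counts, from 0 for Krt8 in GB2 tumor 1 and Cldn4 in PBS tumor 3 to 339 for Cdh1 in GB2 tumor 3. Nothing in the labels ties a tumor of one group to a tumor of the other, and p-values below measure the spread between these tumors.

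In GB2 tumors 7 of the 10 receptor genes had their lowest value above the highest value of any PBS tumor: Msr1, Stab1, Cd163, Mrc1, Cd36, Colec12 and Cd68. The same separation in the upward direction was seen in 8.61% of all genes tested, and separation downward in 6.68%, which none of the 10 showed. These 7 genes were also the ones with an unadjusted edgeR p below 0.05 and at least a 2-fold difference, the unadjusted limit used below. It was passed upward by 3.74% of all genes (733 genes) and downward by 0.918% (180 genes). The median log2 fold change of the 10 genes was 1.40, against -0.02 for all genes tested. Stab2, Marco and Scarb1 had overlapping groups. In bulk tissue a larger number of macrophages and more RNA per macrophage cannot be told apart.

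None of the 10 genes passed the study's limits (adjusted p below 0.05 together with a 2-fold or larger difference) in edgeR's quasi-likelihood test, and neither did any other gene, so the share called was 0%. The smallest adjusted p in the whole table was 0.166, while 1360 genes had an unadjusted p below 0.05. DESeq2, run on the same counts as an alternative, called 6 of the 10 (the same 7 without Cd68) and 385 genes in all, of which 352, or 1.8% of those with an adjusted p, were higher in GB2 tumors. The directions given below therefore rest on the separation of the tumors and on unadjusted p-values, and the edgeR adjusted p of each of the 10 genes is given with its values.

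**Figure D1:**
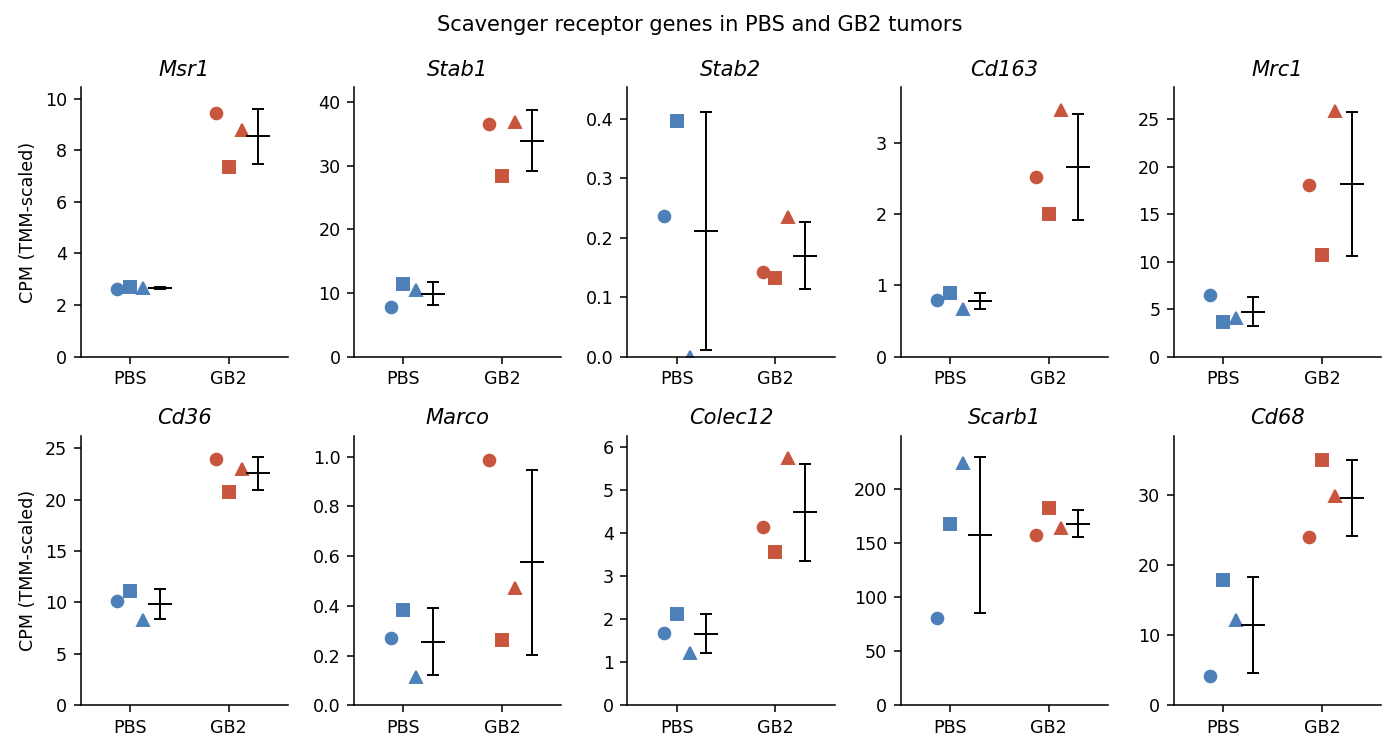
CPM (deposited counts scaled by library size and TMM factor) of the 10 scavenger receptor genes in each tumor, on linear axes from 0, with the mean and SD of the 3 tumors of a group as a bar at the right of the points. Circles, squares and triangles are tumors 1, 2 and 3 of each group, and the numbers do not pair tumors; the groups are separate in 7 panels and overlap for Stab2, Marco and Scarb1.

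Among the class A receptors, Msr1, the macrophage receptor for acetylated and oxidized low-density lipoprotein also known as SR-A1 or CD204, had the tightest baseline of all 10 genes. It stood at 2.60, 2.68 and 2.65 CPM in PBS tumors 1, 2 and 3 and at 9.44, 7.37 and 8.79 CPM in GB2 tumors 1, 2 and 3. The lowest GB2 tumor lay 2.75-fold above the highest PBS tumor, and the PBS tumors varied by only 1.48% (coefficient of variation). Msr1 had a log2 fold change of 1.69 ± 0.24 (SE, n = 3 per group), with an unadjusted p of 1.45e-04 and an edgeR adjusted p of 0.186, rank 11 of all genes by p. Leaving out 1 tumor at a time gave 1.61 to 1.79, so no single tumor carried the difference.

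Colec12, a collectin of class A that is made by endothelial and stromal cells as well as phagocytes, followed the same order. Its values were 1.67, 2.11 and 1.22 CPM in the PBS tumors and 4.14, 3.57 and 5.74 CPM in the GB2 tumors, without overlap. Its log2 fold change was 1.43 ± 0.34 (SE, n = 3 per group), with an edgeR adjusted p of 0.292, and it stayed between 1.21 and 1.64 with any 1 tumor left out. Marco, the class A receptor of resident macrophages in lung, spleen and lymph node, was near the limit of detection. It had 0.271, 0.383 and 0.113 CPM in the PBS tumors and 0.988, 0.265 and 0.471 CPM in the GB2 tumors, that is 8 to 27 deposited counts against 22 to 83. The groups overlapped, since GB2 tumor 2 lay below PBS tumors 1 and 2. The log2 fold change of 1.16 ± 0.71 (SE) had an edgeR adjusted p of 0.761 and fell to 0.52 without GB2 tumor 1.

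Of the class B receptors, Cd36 was separated between the groups and Scarb1 was not, and the difference between them was not tested. Cd36 takes up oxidized lipoproteins and long-chain fatty acids and binds thrombospondin, and it is expressed by macrophages, capillary endothelium, adipocytes and platelets. It stood at 10.1, 11.1 and 8.29 CPM in the PBS tumors and at 23.9, 20.8 and 23.0 CPM in the GB2 tumors. The GB2 tumors were close to each other and all lay above the PBS tumors, by 1.87-fold at the nearest pair. For Cd36 the log2 fold change was 1.20 ± 0.20 (SE, n = 3 per group; edgeR adjusted p = 0.190), the smallest of the 7 separated genes, with 1.09 to 1.30 when each tumor was left out in turn. None of the 7 adipocyte markers passed the unadjusted limit, their median log2 fold change was 0.65, and in 1 of the 7 the groups did not overlap. That median was 0.13 without PBS tumor 3 and 1.03 without PBS tumor 1, where Fabp4 passed the limit.

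Scarb1, the high-density lipoprotein receptor SR-B1 that moves cholesteryl esters into cells and is found on many cell types beyond macrophages, showed no shift. It had 80.6, 167 and 225 CPM in the PBS tumors and 158, 183 and 164 CPM in the GB2 tumors. All 3 GB2 tumors fell inside the PBS range, and the spread was 46.0% of the mean in PBS tumors against 7.65% in GB2 tumors. The log2 fold change was 0.09 ± 0.34 (SE, n = 3 per group; edgeR adjusted p = 0.948). It became -0.21 when PBS tumor 1, the lowest, was omitted and 0.44 when PBS tumor 3, the highest, was omitted, so its sign depended on which PBS tumors entered.

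The stabilins are a pair of sister receptors with the same architecture of fasciclin and epidermal growth factor-like domains, and they clear SPARC, hyaluronan and modified lipoproteins. Stab1 is shared by macrophages and sinusoidal or angiogenic endothelium, while Stab2 is largely limited to the sinusoidal endothelium of liver, spleen and lymph node. The 250 bases before the RefSeq transcription start (GRCm38.p6) are printed 5′ to 3′ for both, because only one of the sisters was separated in these tumors. Stab1 is at chr14:31168642-31168891 and Stab2 at chr10:87007943-87008192, both on the minus strand. Capitals mark the letters GAGGAA (the core bound by PU.1, the myeloid lineage factor) and TGCTGA (a MAF half-site), on either strand.
Stab1: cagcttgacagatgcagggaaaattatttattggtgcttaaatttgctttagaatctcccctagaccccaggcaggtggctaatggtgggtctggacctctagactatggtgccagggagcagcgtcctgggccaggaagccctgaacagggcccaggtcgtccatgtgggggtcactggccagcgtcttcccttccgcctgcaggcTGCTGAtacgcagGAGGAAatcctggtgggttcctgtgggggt
Stab2: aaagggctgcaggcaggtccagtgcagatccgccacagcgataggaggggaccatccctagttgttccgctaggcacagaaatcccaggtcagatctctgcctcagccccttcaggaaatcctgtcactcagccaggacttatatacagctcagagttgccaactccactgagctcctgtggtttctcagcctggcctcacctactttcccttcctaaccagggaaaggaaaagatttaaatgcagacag
The Stab1 sequence holds TGCTGA 43 bases and GAGGAA 30 bases before the start, and the Stab2 sequence holds neither. A match to such short letters is a description and not a binding site.

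Stab1 had 7.81, 11.4 and 10.5 CPM in the PBS tumors and 36.6, 28.4 and 36.9 CPM in the GB2 tumors. The lowest GB2 tumor exceeded the highest PBS tumor 2.50-fold, and only 3 genes in the whole table had a smaller p. The log2 fold change of 1.78 ± 0.22 (SE, n = 3 per group) had an edgeR p of 6.57e-05 and an adjusted p of 0.186, and leaving out each tumor in turn gave 1.65 to 1.89. Stab1 overlaps the neighboring gene Nt5dc2 by 112 bases on the opposite strand. The kit marks strand, but whether the counting used it is not given in the sources used here. Nt5dc2 had 942, 4769 and 4955 counts with PBS and 5884, 4379 and 6320 with GB2, and its groups overlapped. The part of Nt5dc2 reads in the Stab1 values was not tested.

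Stab2 was at the edge of detection in every tumor. It had 14, 28 and 0 deposited counts with PBS and 12, 11 and 20 with GB2, which is 0.237, 0.397 and 0 CPM against 0.143, 0.132 and 0.235 CPM. With 0 counts PBS tumor 3 allows a level of up to 0.170 CPM (3 read pairs at 4 counts each, counting error only). The groups overlapped, and the log2 fold change of -0.31 ± 1.19 (SE; edgeR adjusted p = 0.950) ran from -0.89 to 0.54 as PBS tumor 3 or PBS tumor 2 was left out, so a difference was not detectable at this depth. Clec4g and Oit3, which mark the sinusoidal endothelium of liver, were also too low to be tested. Of the 5 tested markers of lymphatic and sinusoidal endothelium, 4 had a positive log2 fold change and the median was 1.46. Lyve1 (1.86), which some macrophages also make, and Ccl21a (1.77), which had 0 to 55 counts in a tumor, had the highest values, both with overlapping groups. Lyve1 ranged from 1.06 without GB2 tumor 1 to 3.01 without PBS tumor 1, and Ccl21a was at 1.04 without GB2 tumor 3. Pdpn, which fibroblasts also make, passed the unadjusted limit at 1.46, Flt4 was separated at 0.95, and Prox1 stood at -0.11 with overlapping groups. Flt4 passed the unadjusted limit without PBS tumor 2 (1.19) or without GB2 tumor 3 (1.04).

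Cd163 and Mrc1 are the receptors most often used to count alternatively activated macrophages. Cd163 binds hemoglobin in complex with haptoglobin, and Mrc1 (CD206, the mannose receptor) binds mannosylated glycoproteins and collagen. The 250 bases before their starts are given because both genes were separated between the groups while their sequences share none of the motifs searched. Mrc1 is at chr2:14229164-14229413 and Cd163 at chr6:124304401-124304650, both on the plus strand of GRCm38.p6. Capitals mark GAGGAA, which reads TTCCTC on the other strand, and the GC box GGGCGG, which reads CCGCCC.
Mrc1: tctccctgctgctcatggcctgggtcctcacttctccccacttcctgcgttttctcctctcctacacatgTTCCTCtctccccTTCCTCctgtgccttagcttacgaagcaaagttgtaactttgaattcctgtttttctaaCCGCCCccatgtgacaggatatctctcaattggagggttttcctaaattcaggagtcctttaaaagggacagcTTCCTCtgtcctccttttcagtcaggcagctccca
Cd163: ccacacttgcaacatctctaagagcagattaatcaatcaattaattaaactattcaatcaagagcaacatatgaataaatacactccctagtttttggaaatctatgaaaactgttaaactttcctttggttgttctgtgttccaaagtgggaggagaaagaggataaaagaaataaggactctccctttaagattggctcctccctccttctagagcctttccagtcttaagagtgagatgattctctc
The Mrc1 sequence holds the PU.1 core 3 times, at 180, 167 and 35 bases before the start, and the GC box once. The Cd163 sequence holds none of the 7 motifs, which says only that these letters are not in this window.

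In the fit of all 6 tumors, Mrc1 had the largest fold change of the 10 genes, with a wide spread among the treated tumors. It stood at 6.48, 3.65 and 4.05 CPM in the PBS tumors and at 18.0, 10.7 and 25.9 CPM in the GB2 tumors. The nearest pair, PBS tumor 1 and GB2 tumor 2, differed 1.64-fold. Over all 6 tumors the log2 fold change was 1.95 ± 0.39 (SE), with an unadjusted p of 0.00128 and an edgeR adjusted p of 0.234, and it ran from 1.61 without GB2 tumor 3 to 2.25 without PBS tumor 1. Stab1 (1.715) and Msr1 (1.67) were above Mrc1 without GB2 tumor 3. Stab1 (1.89), Cd163 (1.87) and Cd68 (1.85) were above Mrc1 (1.79) without PBS tumor 2. On log2(FPKM + 1), Cd68 (1.51) and Stab1 (1.16) were above Mrc1 (1.14). Cd163 followed a similar order. It had 0.795, 0.894 and 0.665 CPM in the PBS tumors and 2.52, 2.00 and 3.46 CPM in the GB2 tumors, a 2.23-fold gap at the nearest pair. Both genes were highest in GB2 tumor 3 and lowest, among the treated tumors, in GB2 tumor 2. The log2 fold change of Cd163 was 1.76 ± 0.35 (SE; edgeR adjusted p = 0.234), and 1.53 to 1.93 with each tumor left out.

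Cd68 (macrosialin, class D) sits mainly in late endosomes and lysosomes and is the general histological marker of macrophages. The 250 bases before its start are printed because they hold the most kinds of motif among the 7 member promoters searched, and they lie at chr11:69666171-69666420 on the minus strand of GRCm38.p6. Capitals mark GAGGAA, the AP-1 letters TGANTCA, the C/EBP letters TTGCNNAA and the GC box.
Cd68: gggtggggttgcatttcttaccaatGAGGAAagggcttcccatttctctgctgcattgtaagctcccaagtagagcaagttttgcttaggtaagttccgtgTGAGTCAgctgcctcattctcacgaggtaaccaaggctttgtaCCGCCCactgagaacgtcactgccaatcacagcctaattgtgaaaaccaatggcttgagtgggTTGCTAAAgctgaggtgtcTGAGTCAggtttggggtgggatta
The PU.1 core lies 225 bases before the start, the AP-1 letters occur at 149 and 24 bases, the C/EBP letters at 43 bases and the GC box at 106 bases.

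Cd68 had 4.24, 17.9 and 12.2 CPM in the PBS tumors and 24.0, 35.0 and 29.9 CPM in the GB2 tumors. The groups were separate, but the nearest pair, PBS tumor 2 and GB2 tumor 1, differed only 1.34-fold. Low expression in PBS tumor 1 carried part of the fold change. Its log2 fold change was 1.37 ± 0.47 (SE, n = 3 per group; unadjusted p = 0.0209; edgeR adjusted p = 0.583). Omitting PBS tumor 1 lowered it to 0.99, and omitting PBS tumor 2 raised it to 1.85. Without PBS tumor 1 the number of genes past the unadjusted limit was therefore 6, not 7, since Cd68 no longer reached a 2-fold difference. Without GB2 tumor 2 it was also 6, since Cd68 then had an unadjusted edgeR p of 0.0627. Cd68 was also the only separated gene that DESeq2 did not call, with a DESeq2 adjusted p of 0.146.

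**Figure D2:**
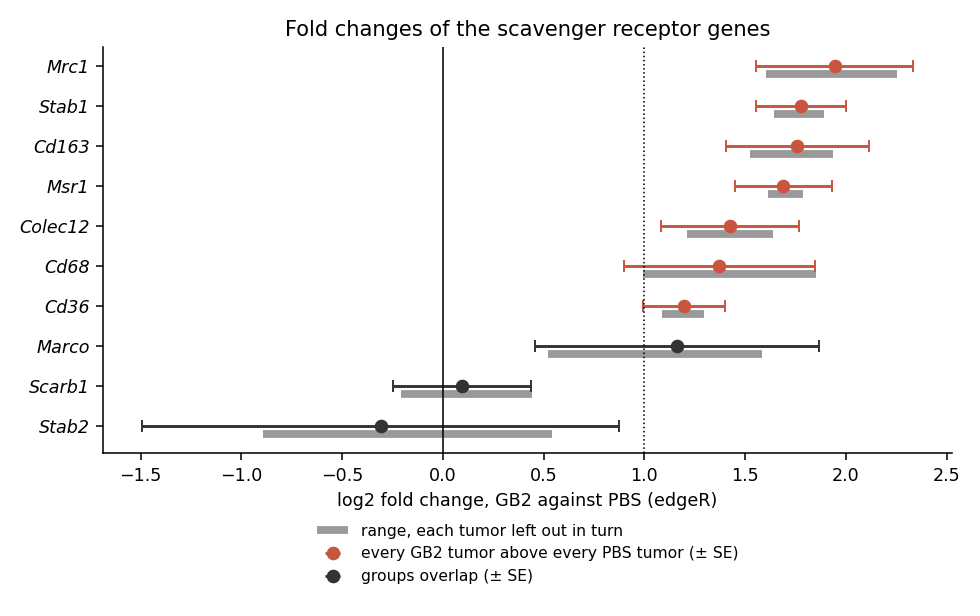
Log2 fold change, GB2 against PBS, from edgeR for the 10 scavenger receptor genes (points, with SE), colored by whether the groups overlap, and as a gray bar the range when each of the 6 tumors is left out in turn. The dotted line marks a 2-fold difference; the ranges of Msr1, Stab1, Cd163, Mrc1, Cd36 and Colec12 lie above it, Cd68 reaches down to 0.99, and those of Scarb1 and Stab2 cross 0.

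Promoter sequences from RefSeq were matched by symbol for 7 of the 10 genes, and Msr1, Colec12 and Scarb1 had no entry. As a strand check, the bases after each start were looked for in GENCODE transcripts of the same gene. They were found for Marco, Mrc1, Stab1 and Stab2 but not for Cd36, Cd163 and Cd68. Across the 7, the PU.1 core was found in 4 (Stab1, Mrc1, Marco and Cd68), against 23.3% of 32851 promoter windows of the same length. The MAF half-site was found in 2 (Stab1 and Cd36), against 16.1% of windows, and the GC box in 3 (Mrc1, Cd36 and Cd68), against 32.7%. AP-1 and C/EBP letters were found in Cd68 alone, against 6.75% and 9.56% of windows. A TATA box (TATAAA) and the lysosomal E-box (CACGTG) were found in none of the 7, against 12.4% and 6.02% of windows. Marco, near the limit of detection and with overlapping groups, had the PU.1 core, and Cd163, with separate groups, had none of the motifs. Whether the motifs bear on expression in these tumors was not tested.

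Levels of different genes were compared as FPKM, which divides the fragment count of a gene by its length and by the library size. In PBS tumors the order was Scarb1 at a mean of 17.6 FPKM, Cd68 at 8.65, Cd36 at 2.54, Stab1 at 0.897, Mrc1 at 0.678, Msr1 at 0.386, Colec12 at 0.176, Cd163 at 0.129, Marco at 0.119 and Stab2 at 0.0213. The ranges of neighbors in this order overlapped for Scarb1 and Cd68, Cd68 and Cd36, Stab1 and Mrc1, Colec12 and Cd163, and Cd163 and Marco. In GB2 tumors Cd68 led with 23.0 FPKM, followed by Scarb1 at 19.4, Cd36 at 6.16, Stab1 at 3.24, Mrc1 at 2.81, Msr1 at 1.32, Colec12 at 0.503, Cd163 at 0.476, Marco at 0.290 and Stab2 at 0.0182. The same neighbors below the leading pair overlapped here, and Cd36 was clear of Scarb1. The order below the leading pair was therefore the same in both groups, and the exchange of Scarb1 and Cd68 at the top is between neighbors whose ranges overlapped in each group. The widely used marker genes Cd163 and Mrc1 thus ranked far apart: Mrc1 was the fifth and Cd163 the eighth gene in each group by this measure.

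The sum over the 10 genes was 15.7, 38.2 and 39.7 FPKM in the PBS tumors and 53.3, 58.8 and 59.6 FPKM in the GB2 tumors. PBS tumor 1 had less than any other tumor, and the GB2 tumors were all above the PBS tumors. Scarb1 made up 49.6% to 64.8% of this sum in PBS tumors and 32.2% to 34.9% in GB2 tumors. Cd68 made up 18.3% to 35.7% and 35.6% to 45.2%, and its shares overlapped by a narrow margin. The share of Stab1 was 2.49% to 4.11% in PBS tumors and 4.48% to 6.61% in GB2 tumors, again without overlap. The shares of one tumor sum to a whole, so they are not independent of each other.

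**Figure D3:**
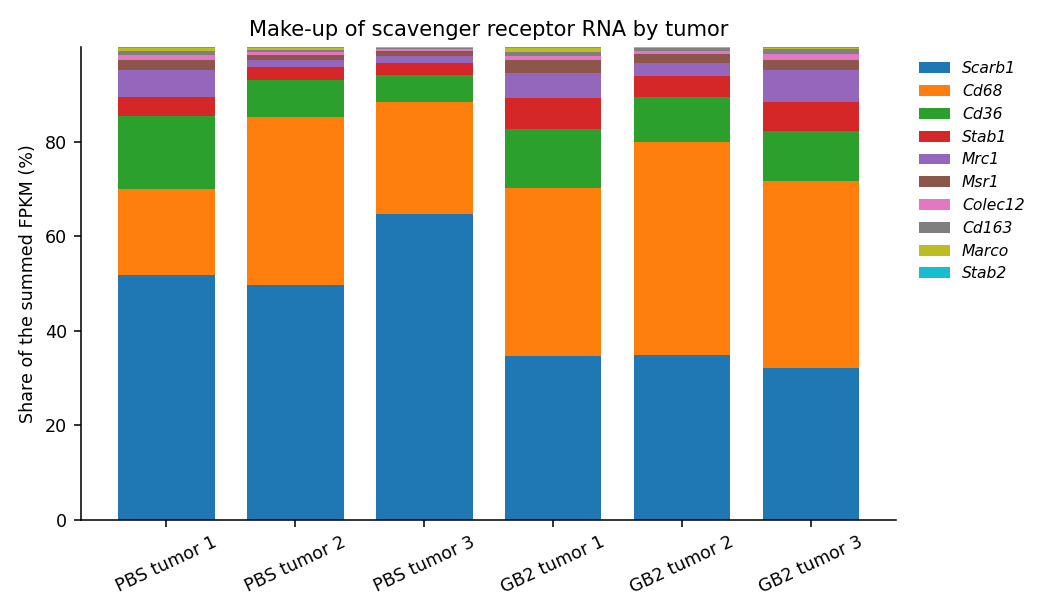
Share of each gene, in percent, in the summed FPKM of the 10 scavenger receptor genes, 1 bar per tumor. Scarb1 (lowest segment) takes 49.6% to 64.8% in the 3 PBS tumors and 32.2% to 34.9% in the 3 GB2 tumors, while Cd68, Cd36 and Stab1 fill most of the rest.

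Markers of macrophages as a class were higher in GB2 tumors as well. Of 15 such genes, 12 passed the unadjusted limit upward and 13 were separated, with a median log2 fold change of 1.94, and DESeq2 called 10. Their summed level was 61.3 to 91.5 CPM in PBS tumors and 267 to 376 CPM in GB2 tumors. Adgre1 (F4/80) and the integrin Itgam headed the list with log2 fold changes of 2.55 and 2.43. Mertk, a receptor for apoptotic cells, and Aif1 were at its lower end with 0.69 and 1.15. Aif1 ranged from 0.47 without GB2 tumor 3 to 1.67 without PBS tumor 1, where it passed the unadjusted limit. The part of these cells in the values of the receptors was not tested.

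Each receptor was set against the mean log2 CPM of these 15 macrophage markers in the same tumor, a difference that needs no scaling between libraries. For Msr1, Stab1, Cd163, Mrc1 and Cd68 the differences between groups were -0.18, -0.07, -0.15, 0.04 and -0.27 log2 units, and the groups overlapped. The sign of all 5 depended on single tumors. Without PBS tumor 3, which had the lowest marker level, they were 0.12 for Msr1, 0.28 for Stab1, 0.04 for Cd163 and 0.19 for Cd68, and without PBS tumor 2 Mrc1 was at -0.32. Cd68 was at -0.97 without PBS tumor 1, and both remaining PBS tumors then lay above all 3 GB2 tumors. For Cd163 without GB2 tumor 1, the remaining GB2 tumors (-1.91 and -1.84) lay below all 3 PBS tumors, the nearest at -1.82. Per unit of macrophage marker RNA, a direction was thus not settled for these 5 receptors with 3 tumors a group. Cd36, Colec12 and Scarb1 were lower relative to the markers in every GB2 tumor than in any PBS tumor, with differences of -0.65, -0.44 and -1.64 log2 units. Leaving out PBS tumor 3 brought Scarb1 to -1.02, leaving out GB2 tumor 3 brought Cd36 to -0.42, and Colec12 ran from -0.52 to -0.34. Each of these 3 had an exact two-sided permutation p of 0.1, the smallest that 3 against 3 tumors allow, and 0.333 after adjustment over the 10 genes. The low-count genes Marco and Stab2 had differences of -0.82 and -1.44 with overlapping groups, which were separate without GB2 tumor 1 for Marco (-1.42) and without PBS tumor 3 for Stab2 (-2.36).

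In single tumors, the log2 level of Scarb1 above the macrophage mean was 4.84, 5.69 and 7.11 with PBS, against 4.41, 4.59 and 3.72 with GB2. For Cd36 it was 1.85, 1.78 and 2.36 against 1.69, 1.45 and 0.88, and for Colec12 -0.73, -0.60 and -0.39 against -0.83, -1.08 and -1.11. For Cd36 and Colec12 the nearest tumors of the groups were thus barely apart. Relative to Cd68 in the same tumor, Scarb1 differed by -1.37 log2 units, without overlap and with an exact permutation p of 0.1 (0.9 after adjustment over the 9 genes), and the other 8 receptors overlapped.

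**Figure D4:**
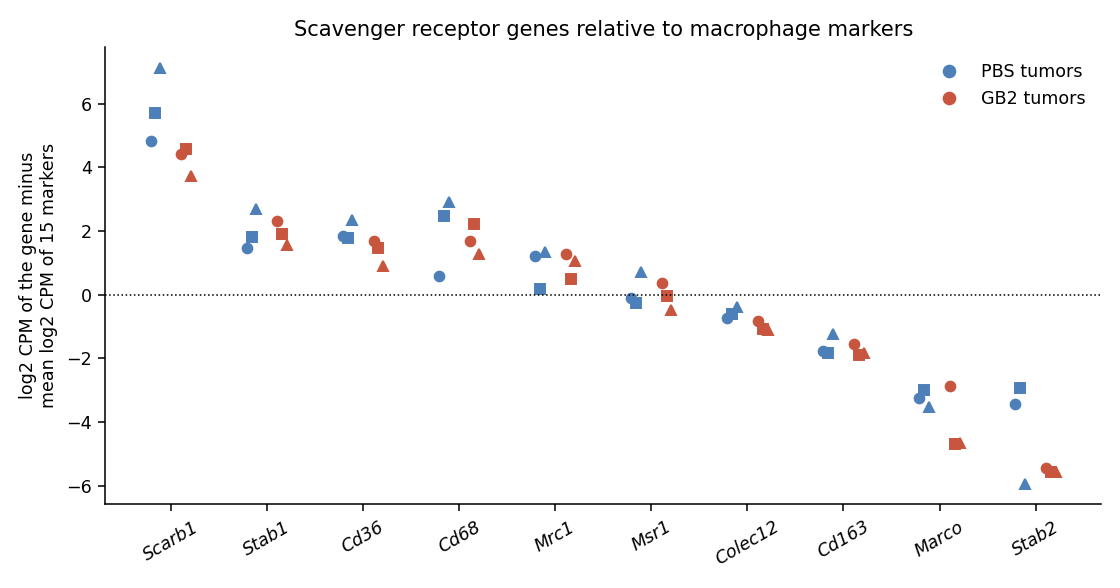
Log2 CPM of each scavenger receptor gene minus the mean log2 CPM of the 15 macrophage markers in the same tumor, by tumor (PBS blue, GB2 red; circles, squares and triangles are tumors 1, 2 and 3). The groups overlap for Stab1, Cd68, Mrc1, Msr1 and Cd163, whereas all 3 GB2 tumors lie below all 3 PBS tumors for Scarb1, Cd36 and Colec12.

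Markers of other cell types that can carry these receptors were examined as well. Of 12 endothelial markers, 11 were separated upward, 5 of them (Tek, Kdr, Cdh5, Pecam1 and Cldn5) passed the unadjusted limit with log2 fold changes of 1.69, 1.44, 1.38, 1.34 and 1.18, and DESeq2 called 4. Their summed level was 104 to 116 CPM in PBS tumors and 193 to 213 CPM in GB2 tumors. Egfl7 was at 0.63, and Vwf stood at -0.48 with overlapping groups (-0.21 without PBS tumor 2 and -0.79 without PBS tumor 3). The number past the limit was 4 to 7 with each tumor left out, and 4 without PBS tumor 2, where Cldn5 was at 0.99. All 10 fibroblast markers were separated and passed the unadjusted limit, with a median log2 fold change of 1.50 and values from 1.11 for Pdgfrb to 2.03 for Fap. The number was 9 without PBS tumor 1, where Pdgfrb was at 0.79, and 9 without GB2 tumor 1. Relative to the endothelial list, Stab1, Cd163, Msr1 and Cd36 were higher without overlap, by 0.83, 0.74, 0.72 and 0.24 log2 units. For Cd36 the nearest tumors were barely apart, at 0.772 in PBS tumor 2 and 0.779 in GB2 tumor 3. Mrc1 differed by 0.94 with overlapping groups. Relative to the fibroblast list, a reference added after the data were seen, Cd36 and Scarb1 were lower without overlap, with differences of -0.40 and -1.39, and the other 8 genes overlapped. In each of these ratios a separated gene had an exact permutation p of 0.1, which became 0.25 for the endothelial and 0.5 for the fibroblast reference after adjustment over the 10 genes. Of 7 skeletal muscle markers 5 were separated upward (median 0.58), and without PBS tumor 3 the median was 1.09 and 3 passed the unadjusted limit. Of 5 tested epithelial markers 1 was separated (Epcam, 1.64, with 12 to 27 counts in the PBS tumors and 64 to 86 in the GB2 tumors). Of 7 T cell markers none was, and the sign of their median (-0.50) depended on single tumors, with a range of -1.86 without GB2 tumor 3 to 0.46 without PBS tumor 2. Without PBS tumor 3, 1 of these 7 passed the limit downward, Cd3e. It had 29, 46 and 0 deposited counts with PBS and 4, 7 and 17 with GB2. The 7 T cell markers summed to 0.368 to 5.70 CPM in the PBS tumors and 0.691 to 3.54 CPM in the GB2 tumors. At such low counts a direction of the T cell markers was not settled. The part of these cell types in the receptors' values was not tested.

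The tumors also showed how alike the members were. Over the 6 tumors, the log2 CPM values of Msr1, Stab1, Cd163, Mrc1, Cd36 and Colec12 had pairwise Pearson correlations of 0.881 (Stab1 and Mrc1) to 0.986 (Cd163 and Colec12). All 6 genes were separated between the groups, and the same 6 libraries enter every pair, so these values describe these tumors and carry no test. Scarb1 had correlations of -0.04 to 0.37 with the same 6 genes, and Cd68 of 0.53 with Mrc1 to 0.85 with Stab1.

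Among 14246 genes with a mean of at least 1 CPM, the genes most like each receptor over the 6 tumors came from several cell types. Stab1 was closest to Kdr (the endothelial VEGF receptor, r = 0.998), then Col5a1 and the myeloid lysozyme Lyz2. Cd36 was closest to Sfrp2, a secreted Wnt modulator of fibroblasts (r = 0.998), then to Cd84 and to Folr2, the folate receptor of resident macrophages. Colec12 was closest to Podn, Tgfbi and Col1a2, with r = 0.998 for Podn. Mrc1 was closest to Aspn, Hunk and Nt5e, Cd163 to Gpx3, Lyn and Fbn1, and Msr1 to Rttn, Pecam1 and H2-T24. The genes closest to Scarb1 were Ncstn, Trpm4 and Rrm2b and those closest to Cd68 were Uhrf1, Adar and St6galnac4, none of them cell type markers in the lists used. With 6 tumors and so many genes, correlations of this size arise for each of the 10 genes, those at the detection limit included: Stab2 had 0.985 with Nol3, and Marco 0.994 with Vps13a.

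A wider set of receptors was examined in the same way. Of 18 other scavenger and uptake receptors, 14 had a positive log2 fold change, 4 passed the unadjusted limit upward, against 3.74% of all genes, and the median was 0.19 (0.35 without PBS tumor 3). Without GB2 tumor 3 only 2 of the 18 passed, Scara3 and Cxcl16 being lost. The difference between this list and the 10 members was not tested. These 4 were Clec7a (Dectin-1, the beta-glucan receptor of myeloid cells, 2.07), Mrc2 (the collagen receptor of fibroblasts, 1.71), Cxcl16 (a membrane chemokine that binds oxidized lipoprotein, 1.66) and Scara3 (1.37). Olr1, the endothelial receptor for oxidized lipoprotein, was at the detection limit, with 4, 0 and 0 counts in the PBS tumors against 18, 12 and 12 in the GB2 tumors. Its fitted log2 fold change of 2.88 ± 1.31 (SE, unadjusted p = 0.0612) was 6.73 without PBS tumor 1, with an unadjusted edgeR p of 0.00762, and such a fitted value is no measure of size. The lowest were Scara5 at -0.51 (-0.26 without PBS tumor 1) and Ager at -0.40, both with overlapping groups. Ager was at -0.17 without GB2 tumor 3 and at -0.61 without GB2 tumor 2. A further list was taken from the table's own annotation after the data were seen. It annotates 45 genes with scavenger receptor activity, 8 of the 10 members among them (not Mrc1 or Cd68). Of the 30 other tested genes so annotated, 2 passed the unadjusted limit upward, Fcrls (2.08) and Cxcl16, against 3.74% of all genes. Separation upward was seen in 4 of the 30, against 8.61% of all genes, and the median log2 fold change was 0.17.

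Secreted ligands of the receptors were examined as well. Of 12, 5 passed the unadjusted limit, all matrix proteins: Thbs2 (2.54), which like other thrombospondins binds CD36, Tgfbi (2.16), Postn (2.01), Col3a1 (1.64) and Col1a1 (1.45). The fasciclin-domain proteins Tgfbi and Postn are relatives of the stabilins, and Postn, Col3a1 and Col1a1 also stand in the fibroblast list. The median of the list was 0.78, and 7 of the 12 were separated upward. Apoe, a lipoprotein ligand and a major macrophage product, had a log2 fold change of -0.49, and Gdf15, which is cleared by Stab1, of -0.21, both with overlapping groups. Apoe was at 0.03 without PBS tumor 1. Gdf15 rested on GB2 tumor 3: without it the value was -2.29, with an unadjusted edgeR p of 0.0019, past the limit downward.

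**Figure D5:**
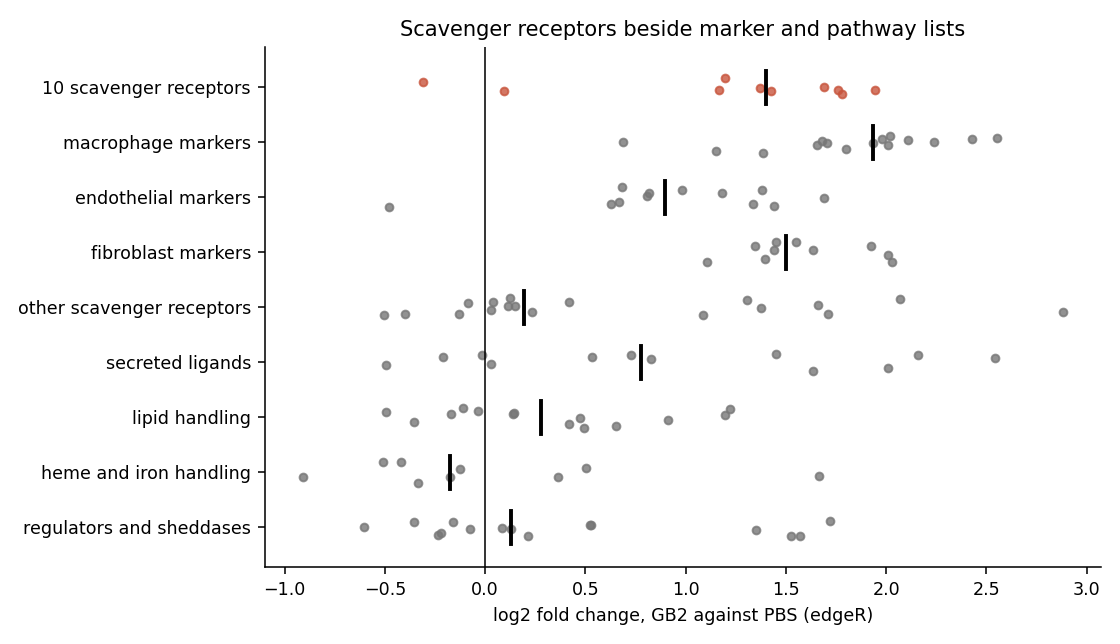
Log2 fold change, GB2 against PBS (edgeR), of each tested gene in the 10 scavenger receptors (red) and in lists of cell type markers, other receptors, ligands, downstream handling and regulators (gray), with the median of each list as a black bar. The medians are 1.40 for the receptors, 1.94 for macrophage markers, 1.50 for fibroblast markers, 0.90 for endothelial markers and 0.19 for other scavenger receptors.

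Downstream of uptake, genes that store, move or break down the cargo gave no common direction. Of 14 lipid-handling genes 2 passed the unadjusted limit, the cholesterol exporters Abca1 and Abcg1 with log2 fold changes of 1.22 and 1.20, and the median was 0.28. The lowest were Apoe and the lysosomal cholesterol carrier Npc2 (-0.36), and Npc2 was at -0.04 without PBS tumor 1. Of 9 genes of heme and iron handling, 1 passed, the phagosomal metal transporter Slc11a1 (1.67). Hmox1, the heme oxygenase that degrades heme delivered through CD163, was lower in every GB2 tumor, with a log2 fold change of -0.42 ± 0.15 (SE), an unadjusted p of 0.0239 and an edgeR adjusted p of 0.615. Hpx, the plasma heme carrier, had 20.6, 21.7 and 22.9 CPM in the PBS tumors and 0.250, 19.3 and 15.1 CPM in the GB2 tumors. The groups were separate, but the log2 fold change of -0.91 (edgeR adjusted p = 0.854) was -0.33 without GB2 tumor 1, by far the lowest. The list went both ways, with 3 genes higher and 6 lower and a median of -0.17, which ran from -0.38 without PBS tumor 2 to near 0 without PBS tumor 1.

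Of 15 tested regulators and sheddases, 4 passed the unadjusted limit, among them the myeloid factor Spi1 (PU.1, 1.52) and the cytokine receptors Il4ra (1.57) and Il10ra (1.35). Il10 had too few counts to be tested, and the median of the list was 0.13 (0.0044 without GB2 tumor 3 and 0.27 without PBS tumor 3). Il4, the cytokine that induces Mrc1, was at -0.60, and Irf4, a factor of alternative activation, at -0.36, both with overlapping groups. Il4 ranged from -0.94 without PBS tumor 3 to -0.32 without PBS tumor 1. Irf4 ranged from -1.58 without GB2 tumor 3 to 0.41 without PBS tumor 1. Without GB2 tumor 3 the number past the limit was 3, since Il10ra had an unadjusted edgeR p of 0.0644.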

How the data were processed

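RNA was sequenced from 6 whole MC38 tumors. Per the submitters' processing notes, the authors used cutadapt 1.9, HISAT2 2.2.1 and StringTie 2.1.6, with DESeq2 and edgeR named without versions. The table deposited by the authors gives estimated counts per gene, apparently about 4 for each read pair, and FPKM. The notes name mm10, but the table's gene positions differ from it, so none are printed.

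Counts were tested with edgeR 4.0.16 in R 4.3.3 (TMM, filterByExpr with a minimum count of 10, quasi-likelihood test, Benjamini-Hochberg over 19602 genes), after tests on simulated data. Genes were called at an adjusted p below 0.05 with a 2-fold or larger difference, the limits in the study's methods. Alternatives were DESeq2 1.42.0, limma 3.58.1 on log2(FPKM + 1) and log2(FPKM + 0.1), RLE factors, no filter, counts divided by 4, a replicate block and leaving out each tumor. Ratios used log2 CPM with a prior count of 2 and exact permutation tests.

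The members and lists were chosen with earlier results of these data known. Genes named beside the members were the 2 highest and 2 lowest of a list, those past the unadjusted limit and the 3 nearest to each member. Flt4, Prox1, Hmox1, Nt5dc2 and Fcrls were named after their values were seen. The values of 1 gene in the list of regulators are not reported here. Promoter windows came from RefSeq (GRCm38.p6), and motifs were searched on both strands with Python 3.11.15.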

Additional observations from a re-analysis of the deposited data

How the results depend on the processing

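Every member kept the direction of its fold change under every alternative tried except Stab2 and Scarb1. With the replicate block Stab2 was at 0.23, and with each tumor left out Stab2 ran from -0.89 to 0.54 and Scarb1 from -0.21 to 0.44. The replicate numbers do not pair the tumors (same-numbered deviations correlated at 0.03, 0.15 and -0.25), and the replicate block called 0 members, as did the fit without it. DESeq2 called 385 genes and 6 members. On log2(FPKM + 1), which compresses low genes, 95 genes passed the unadjusted limit upward and 36 downward, 4 members passed it, and the member median was 0.74. Without a filter 338 genes passed downward, and with each tumor left out 123 to 548 did (310 without PBS tumor 2, 548 without PBS tumor 3). The cause was not tested. With the endothelial list in place of the macrophage list, the relative level was 0.24 for Cd36, 0.46 for Colec12, 0.74 for Cd163 and 0.72 for Msr1. It was 0.83 for Stab1, 0.080 for Marco, 0.63 for Cd68, 0.94 for Mrc1, -0.74 for Scarb1 and -0.54 for Stab2. With the fibroblast list it was 0.10 for Cd163, 0.072 for Msr1 and 0.18 for Stab1, and on log2(FPKM + 0.1) it was 0.014 for Stab1. With each tumor left out, the level relative to macrophage markers was -0.32 to 0.27 for Mrc1, -0.26 to 0.036 for Cd163, -0.39 to 0.12 for Msr1, -0.33 to 0.28 for Stab1 and -0.97 to 0.19 for Cd68. The log2 fold changes of Apoe, Gdf15 and Irf4 ran from -0.73 to 0.029, from -2.29 to 0.30 and from -1.58 to 0.41. Stab2 and Marco were near the limit of detection, with at most 28 and 83 counts in any tumor. With counts divided by 4, Stab2 and Marco had too few counts to be tested, and Stab2 was below the filter of the limma fits on FPKM.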
